A study of Caenorhabditis elegans with 11 samples.

Results

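The genes described here encode parts of the machinery that copies chromosomal DNA. They were chosen by their WormBase symbols: *mcm-2*, *mcm-3*, *mcm-4*, *mcm-5*, *mcm-6*, *mcm-7*, *pcn-1*, *rnr-1* and *rnr-2*, which are 9 of the 46756 genes in the count tables. The libraries came from wild-type *Caenorhabditis elegans* (N2 Bristol) that were placed as day 1 adults on *Escherichia coli* HT115. The bacteria made double-stranded RNA against *xpo-1*, the gene of the nuclear export receptor exportin 1, or carried the empty vector L4440 as control. The harvest of whole animals followed 96 hours later, on day 5, and all plates were kept at 20 °C. Adults were parted from their progeny by letting them settle in buffer at each daily transfer, so that offspring which settled with them would remain in the culture. Feeding RNAi acts in the whole animal, and no tissue was isolated. Total RNA was sequenced from 2 control and 2 *xpo-1* RNAi samples, monosome RNA (transcripts carrying a single ribosome) from 2 control samples and 1 *xpo-1* RNAi sample, and polysome RNA (transcripts carrying several ribosomes) from 2 samples of each treatment. The study calls its samples biological duplicates, and the labels do not say which came from separate cultures, so the p-values measure only the spread between these libraries.

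As background, the Mcm proteins form the ring-shaped helicase that is loaded onto replication origins and unwinds DNA ahead of the fork. PCN-1 (PCNA) is the sliding clamp that holds DNA polymerases on their template, and ribonucleotide reductase, made of the large subunit RNR-1 and the small subunit RNR-2, turns ribonucleotides into the building blocks of DNA. In adult nematodes the somatic cells no longer divide. Replication takes place in the proliferating part of the germ line, and oocytes and early embryos carry large stores of replication transcripts.

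The genes lie on 5 chromosomes of the WBcel235 assembly, with coordinates as the count tables give them. Of the helicase genes, *mcm-2* (WBGene00003154) is at chromosome II, 12001510 to 12006625, *mcm-3* (WBGene00003155) at V, 15056719 to 15059599, *mcm-4* (WBGene00003156) at I, 2318291 to 2321847, *mcm-5* (WBGene00003157) at III, 4288264 to 4291283, *mcm-6* (WBGene00003158) at III, 9794367 to 9798643, and *mcm-7* (WBGene00003159) at V, 4347166 to 4349768. The clamp gene *pcn-1* (WBGene00003955) is at IV, 4047937 to 4049448, and the reductase genes *rnr-1* (WBGene00004391) and *rnr-2* (WBGene00004392) are at III, 9225374 to 9228786 and 4093306 to 4094921. *mcm-6* and *mcm-7* lie on the plus strand and the other 7 on the minus strand. Exons of *mcm-4* overlap those of *ekl-7* on the opposite strand by 43 nt, and *ekl-7* itself held 516 to 3933 counts per library. The exons of *mcm-3*, *mcm-6* and *rnr-2* overlap genes that held at most 29 counts, by 26, 4 and 6 nt. Whether strand was used in counting was not stated, so reads in these overlaps cannot be assigned.

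Library totals ran from 15589628 to 21828657 counts. In every library each replication gene held between 2093 and 23325 counts, so counting error was small beside the spread between libraries. Silencing was seen in every library labelled *xpo-1* RNAi. *xpo-1* stood at 295 and 242 CPM (counts relative to library size after TMM scaling within one kind of RNA) in control total RNA and at 34.1 and 35.9 CPM under RNAi, at 213 and 138 against 22.4 and 22.7 CPM in polysome RNA, and at 275 and 305 against 52.3 CPM in monosome RNA. The 2 control samples of a kind were less alike than the 2 *xpo-1* RNAi samples. In control total RNA all 9 replication genes were lower in replicate 2, at 0.769 to 0.878 of replicate 1, and in control polysome RNA at 0.613 to 0.829 of it. The median of the same ratio over all genes was 0.918 and 0.911. The same replicate held more RNA of molting and cuticle genes (926 and 2154 CPM summed over 20 genes in control total replicates 1 and 2) and of sperm genes (87.6 and 308 CPM over 19 genes). In *xpo-1* RNAi polysome RNA the ratio of replicate 2 to replicate 1 was 1.06 to 1.21, with a median over all genes of 1.04.

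Transcript levels of the replication genes were first compared with each other. Per kb of exon, *pcn-1* was the most abundant in all 6 groups, at 898 ± 110 CPM per kb (SD, n = 2) in control total RNA. It was followed in the 5 groups with replicates by *rnr-2*, at 442 ± 81.8 CPM per kb (SD, n = 2) in control total RNA. The ranges of these 2 genes did not meet those of their neighbours in rank in any of those 5 groups. The large reductase subunit *rnr-1*, at 170 ± 15.7 CPM per kb (SD, n = 2), lay well below *rnr-2*, although the enzyme holds both subunits. The subunits of the helicase, which stand side by side in the ring, were also unequal. In control total RNA *mcm-7* led with 274 ± 27.2 CPM per kb (SD, n = 2), followed by *mcm-4* at 198 ± 20.7 and *mcm-2* at 190 ± 25.7 CPM per kb (SD, n = 2 each), whose ranges overlapped. *mcm-3* stood at 91.7 ± 11.5, *mcm-5* at 73.2 ± 13.5 and *mcm-6* at 65.8 ± 8.09 CPM per kb (SD, n = 2 each), and the ranges of *mcm-5* and *mcm-6* overlapped. In control total RNA the highest helicase gene was 4.11 and 4.25 times the lowest, and under *xpo-1* RNAi 2.83 and 2.54 times. It was 1.77 and 1.58 times the lowest in control polysome RNA, and 1.98 and 2.09 times when *xpo-1* was silenced. Helicase transcripts were thus closer to each other in polysome RNA than in total RNA in each of these libraries. In control polysome RNA the ranges of all neighbours from rank 3 (*rnr-1*) to rank 9 (*mcm-5*) overlapped.

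**Figure D1:**
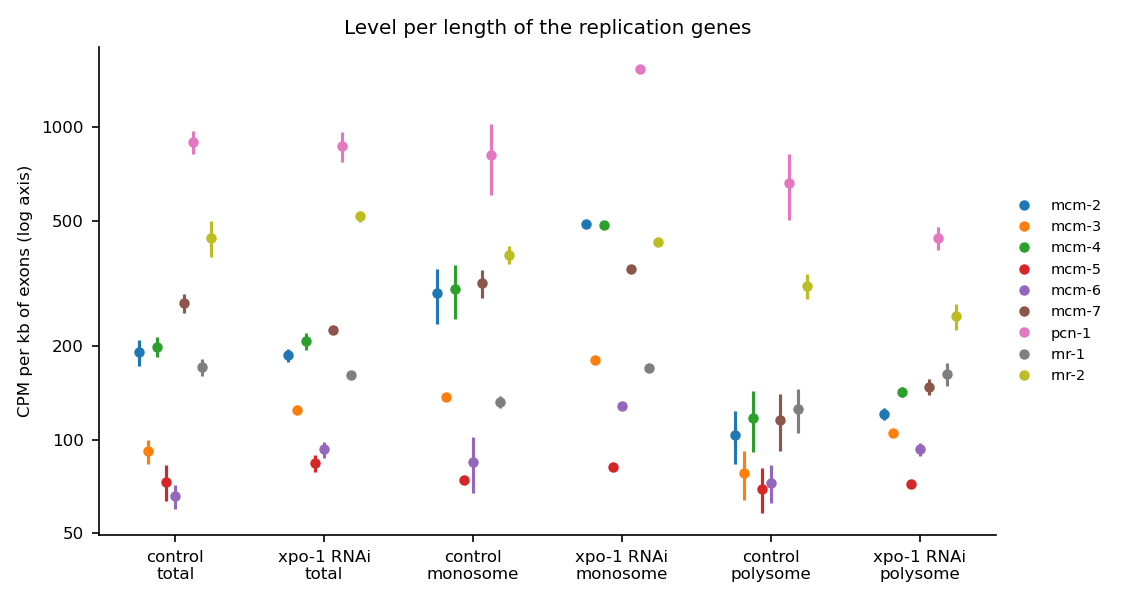
Level of each replication gene in CPM per kb of exons (log axis) in the 6 groups, with points at the mean and lines from the lowest to the highest library (1 library in *xpo-1* RNAi monosome RNA, 2 elsewhere). *pcn-1* is at the top of every group, and the helicase genes lie closer together in polysome RNA than in total RNA.

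The first comparison asked whether the abundance of replication transcripts changed when *xpo-1* was silenced. In total RNA no replication gene was called: 0 of 9 passed an adjusted p under 0.05 with a fold change over 1.5 (edgeR quasi-likelihood test), while 28.9% of the 13795 genes tested did, 12.0% higher and 16.9% lower. DESeq2 also called 0 of 9, and 2 of 9 (*mcm-3* and *mcm-6*) had an unadjusted p under 0.05. Log2 fold changes ran from -0.29 to 0.50 with a median of 0.06, and the median of all genes was 0.01. Both *xpo-1* RNAi libraries lay above both controls in 2 of the 9 genes and below them in 1, against 34.6% and 34.3% of all genes tested. In these bulk samples a change in the number of dividing or germline cells and a change in RNA per cell cannot be told apart.

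Among the helicase genes, *mcm-6* had 185 and 155 CPM in control and 226 and 254 CPM under *xpo-1* RNAi. The groups did not overlap, and the log2 fold change of 0.50 (SE 0.17, 95% interval 0.12 to 0.88, edgeR adjusted p 0.0499) passed the p threshold and, at 1.41-fold, not the fold threshold. *mcm-3* had 268 and 225 CPM in control and 341 and 326 CPM under RNAi. Its groups did not overlap either, and its log2 fold change was 0.44 (SE 0.17, interval 0.05 to 0.82, adjusted p 0.0787). *mcm-7* was the helicase gene that lay lower, with 719 and 625 CPM in control and 546 and 555 CPM under RNAi, a log2 fold change of -0.29 (SE 0.18, interval -0.68 to 0.11, adjusted p 0.249). The other 3 helicase genes overlapped between the treatments. *mcm-2* had 589 and 487 against 551 and 502 CPM, and its log2 fold change was -0.03 (interval -0.44 to 0.38). *mcm-4* had 563 and 486 against 580.2 and 511 CPM, and its log2 fold change was 0.06 (interval -0.35 to 0.46). *mcm-5* had 201 and 155 against 192 and 217 CPM, and its log2 fold change was 0.20 (interval -0.21 to 0.60). The adjusted p of these 3 genes was 0.916, 0.841 and 0.440, and changes of up to 1.30-, 1.38- and 1.52-fold upward stayed within their intervals.

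The clamp gene *pcn-1* stood at 966 and 813 CPM in control and at 957 and 769 CPM under *xpo-1* RNAi. The groups overlapped, with a log2 fold change of -0.04 (SE 0.20, interval -0.49 to 0.40, edgeR adjusted p 0.890). For *rnr-1* the levels were 469 and 412 CPM against 419 and 412 CPM, and for *rnr-2* 694 and 534 against 751 and 691 CPM. Both genes overlapped between treatments, with log2 fold changes of -0.09 (SE 0.17, interval -0.47 to 0.30, adjusted p 0.745) and 0.23 (SE 0.19, interval -0.20 to 0.66, adjusted p 0.398). Left-out libraries changed 1 of the calls in total RNA. Without control total replicate 1, *mcm-6* was called higher (log2 fold change 0.59, adjusted p 0.0242), and without any other library of total RNA none of the 9 was called.

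**Figure D2:**
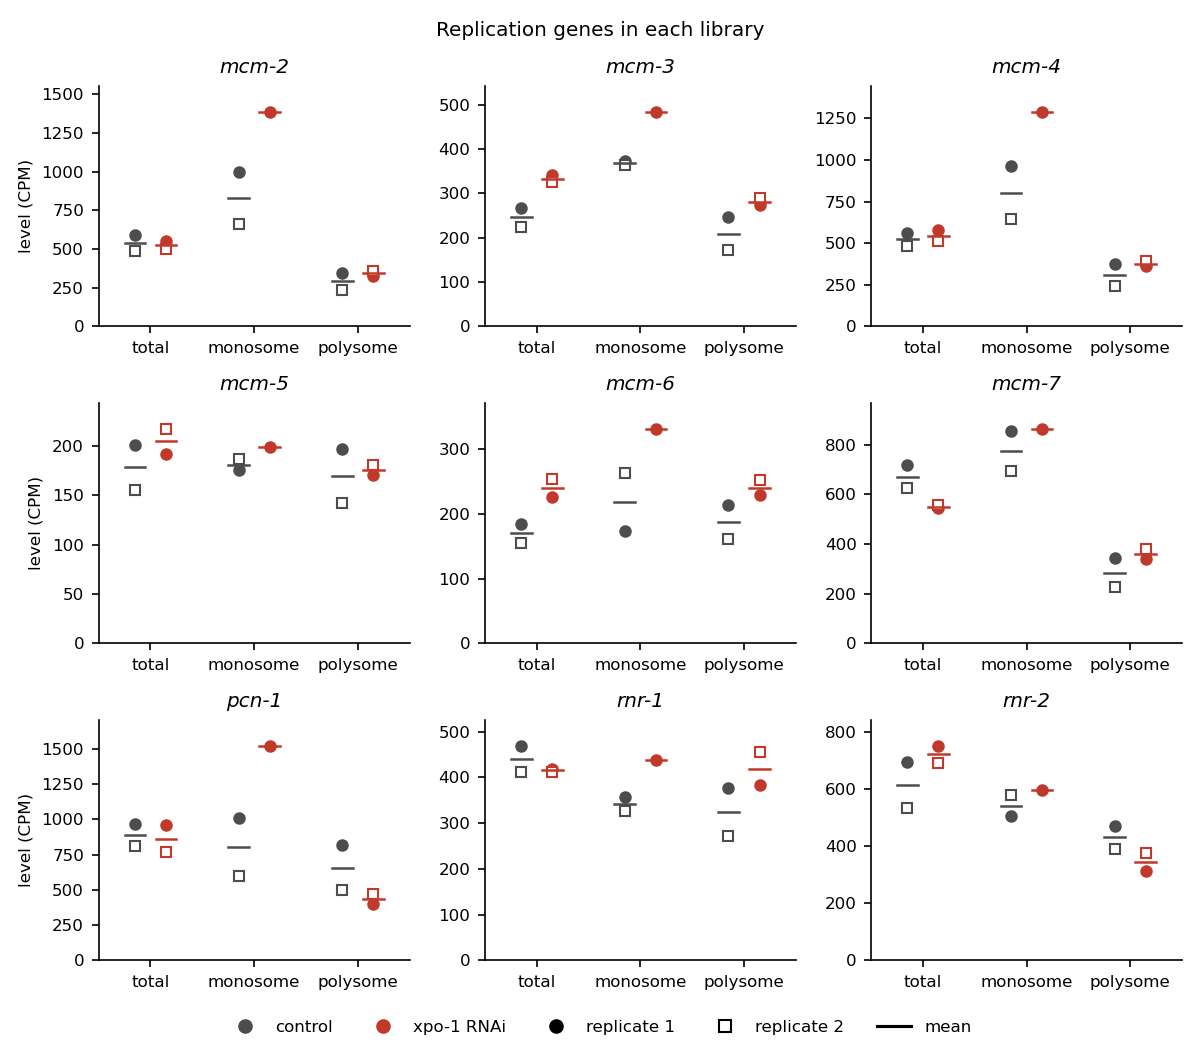
Level of each replication gene in every library, in CPM scaled within each kind of RNA, so that levels compare within total, monosome or polysome RNA only. Grey is control, red is *xpo-1* RNAi, filled circles are replicate 1, open squares replicate 2 and short lines the means. Control replicate 2 lies below control replicate 1 in all 9 panels in total and in polysome RNA.

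The same comparison in polysome RNA asked about transcripts bound by several ribosomes. Each value is a share of the polysome RNA of its library. Again 0 of 9 replication genes were called, against 37.9% of the 13940 genes tested, 15.5% higher and 22.4% lower. DESeq2 called 0 of 9, and *pcn-1* alone had an unadjusted p under 0.05. Log2 fold changes ran from -0.59 to 0.43 with a median of 0.28, and the median of all genes was -0.01. Of the 9 genes, 3 had both *xpo-1* RNAi libraries above both controls and 2 below, against 35.2% and 37.4% of all genes tested.

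*pcn-1* had 816 and 500.5 CPM in control polysome RNA and 402 and 473 CPM under *xpo-1* RNAi. Both RNAi libraries lay below both controls, and the log2 fold change was -0.59 (SE 0.25, interval -1.15 to -0.03, edgeR adjusted p 0.0909). *rnr-2* had 471 and 391 CPM in control and 312 and 377 CPM under RNAi, also without overlap, with a log2 fold change of -0.32 (SE 0.20, interval -0.77 to 0.12, adjusted p 0.224). Its partner *rnr-1* lay the other way, with 376 and 271 CPM in control and 383 and 456 CPM under RNAi, a log2 fold change of 0.37 (SE 0.22, interval -0.12 to 0.87, adjusted p 0.204). The difference between *rnr-1* and *rnr-2* was not tested.

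The helicase genes all had positive log2 fold changes in polysome RNA, and none was called. *mcm-3* had 246 and 172 CPM in control and 273 and 289 CPM under RNAi, a log2 fold change of 0.43 (SE 0.22, interval -0.08 to 0.93, edgeR adjusted p 0.159). *mcm-6* had 213 and 162 CPM against 229 and 252 CPM, a log2 fold change of 0.36 (SE 0.21, interval -0.12 to 0.84, adjusted p 0.205). In these 2 genes the treatments did not overlap, and in the other 4 one or both RNAi libraries fell between the controls. *mcm-7* had 342 and 226 CPM against 339 and 381 CPM (log2 fold change 0.34, interval -0.19 to 0.87). *mcm-4* had 377 and 242 CPM against 361 and 391 CPM (0.28, interval -0.26 to 0.82 on the same scale). *mcm-2* had 348 and 235 against 327 and 358 CPM (0.23, interval -0.28 to 0.74), and *mcm-5* 197 and 142 against 171 and 181 CPM (0.06, interval -0.44 to 0.55). The adjusted p of these 4 genes ran from 0.274 to 0.861.

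Which control library was used decided the calls in polysome RNA. Without control polysome replicate 1, *mcm-3* and *mcm-7* were called higher, with log2 fold changes of 0.64 and 0.60 (edgeR adjusted p 0.00225 and 0.00404). Without control polysome replicate 2, *pcn-1* was called lower at -0.94 (adjusted p 1.42e-06), and *mcm-2*, *mcm-4* and *mcm-5* turned to -0.06, -0.04 and -0.20. A lone control is there assumed to vary like the other groups. Scaling also mattered. With scaling by total counts alone, which moved the median of all genes to 0.30 in total RNA and 0.40 in polysome RNA, *mcm-3* and *mcm-6* were called higher in total RNA and *mcm-2*, *mcm-3*, *mcm-4*, *mcm-6*, *mcm-7* and *rnr-1* in polysome RNA. Without any TMM scaling the 9 genes together took 0.427% and 0.347% of the counts in control total RNA and 0.478% and 0.493% when *xpo-1* was silenced. The shares of polysome RNA were 0.291% and 0.205% against 0.331% and 0.354%. The 95% Wilson intervals, which cover counting error only, were at most 0.00627 percentage points wide in these 8 libraries. As unscaled shares of a library, the sums were higher in both *xpo-1* RNAi libraries than in both controls, and with TMM scaling they overlapped.

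**Figure D3:**
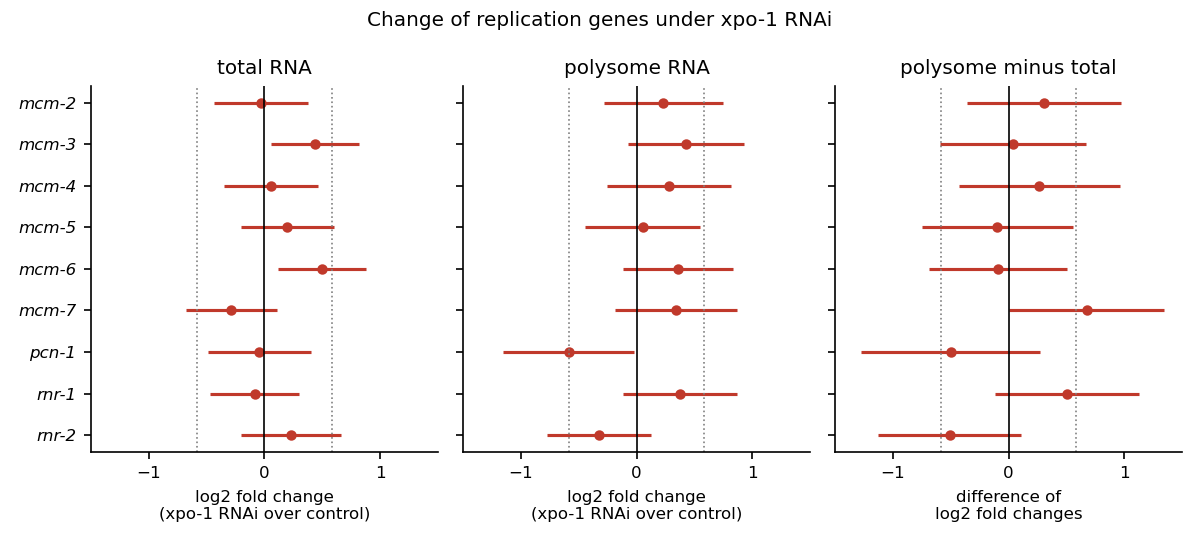
Log2 fold change of each replication gene under *xpo-1* RNAi in total RNA, in polysome RNA, and the polysome change minus the total change, with 95% intervals from the edgeR fits (2 libraries per group). Dotted lines mark the fold change of 1.5. No gene was called in any panel, and *mcm-6* and *mcm-3* in total RNA, *pcn-1* in polysome RNA and *mcm-7* in the difference have intervals that exclude 0.

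Whether polysome RNA changed otherwise than total RNA was tested as an interaction over the 8 libraries of both kinds. None of the 9 replication genes was called, and neither was any other gene (0.0% of 14900 by edgeR, with 2406 genes at an unadjusted p under 0.05 and 690 genes called by DESeq2, none of them a replication gene). *mcm-7* had the largest difference in size among the 9. It lay lower in total RNA and higher in polysome RNA, so that the polysome change exceeded the total change by 0.67 on the log2 scale (SE 0.30, interval 0.00 to 1.35, unadjusted p 0.0492, adjusted p 0.308 in the edgeR fit across all genes). Without control polysome replicate 1 this became 1.02 (adjusted p 0.0438), a call, and over the other left-out libraries it was 0.39 to 0.99 with no call. For *rnr-1* the difference was 0.50 (interval -0.12 to 1.13, adjusted p 0.419), for *rnr-2* -0.51 (interval -1.13 to 0.11, adjusted p 0.409) and for *pcn-1* -0.50 (interval -1.28 to 0.27, adjusted p 0.538). The other 5 helicase genes lay between -0.10 and 0.31, and the smallest adjusted p among them was 0.692.

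Monosome RNA had a single *xpo-1* RNAi library, so its values carry no test. With TMM scaling all 9 replication genes were higher in that library than in both control libraries, as were 43.7% of the 7050 genes with a mean of at least 10 CPM. This count depended on the scaling. As CPM of the library total without TMM, 3 of the 9 (*mcm-2*, *mcm-4* and *pcn-1*) lay above both controls, against 22.3% of the same genes, while *mcm-3*, *mcm-6* and *rnr-1* lay between the controls and *mcm-5*, *mcm-7* and *rnr-2* below both. *mcm-7*, for instance, then stood at 875 and 795 CPM in control and at 734 CPM under RNAi. The levels that follow are TMM scaled. The excess over the mean of the controls was above 1.5-fold in 4 of the 9, against 18.1% of those genes. With scaling by total counts alone the largest ratio to the control mean was that of *pcn-1*, at 1.501, barely over this threshold. The next was that of *mcm-2*, at 1.32. *pcn-1* stood at 1013 and 601 CPM in control and at 1522 CPM under *xpo-1* RNAi, 1.89 times the control mean. *mcm-2* had 997 and 664 CPM against 1386 CPM, and *mcm-4* 961 and 645 against 1289.8 CPM, ratios of 1.67 and 1.61. For *mcm-6* the levels were 174 and 263 against 331 CPM, a ratio of 1.52. Smaller ratios were seen for *mcm-3* (374 and 363 against 484 CPM, 1.31) and *rnr-1* (357 and 327 against 438 CPM, 1.28). *mcm-7* had 854 and 695 against 864 CPM, *rnr-2* 505 and 578 against 596 CPM, and *mcm-5* 175 and 186 against 199 CPM. In these 3 genes the *xpo-1* RNAi value was 1.10 to 1.11 times the control mean, and in *mcm-7* and *rnr-2* this excess was smaller than the gap between the control libraries.

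The ratio of polysome to monosome RNA under *xpo-1* RNAi, relative to control, is used as a measure of translation efficiency. It rests on the same single library and was not tested. *pcn-1* had the lowest log2 value of the 9, -1.53, at percentile 8.03 of 13808 genes, and it stayed between -1.99 and -1.14 when single libraries were left out. *mcm-2* (-0.54), *rnr-2* (-0.50), *mcm-4* (-0.44), *mcm-6* (-0.29) and *mcm-5* (-0.12) were also below the median of all genes, which was -0.02. *rnr-1* was at -0.02, *mcm-3* at 0.00 and *mcm-7* at 0.15. The helicase genes thus spread from percentile 27.99 to percentile 58.9. With scaling by total counts alone *pcn-1* was at -0.76 and the other 8 genes were above 0, while the median of all genes was 0.76, so directions relative to 0 depend on the scaling.

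To see where replication transcripts sit among the ribosome fractions without treatment, the 6 control libraries were fitted together, and levels in this comparison are CPM scaled over these 6. All 9 replication genes were lower in polysome RNA than in total RNA and than in monosome RNA by the fitted means. Against total RNA 2 of 9 were called lower and 0 higher, where 10.6% of the 14754 genes tested were called lower and 2.63% higher. Against monosome RNA 4 of 9 were called lower and 0 higher, where 21.8% were called lower and 15.1% higher. The median log2 ratio of the 9 was -0.73 to total RNA and -0.55 to monosome RNA, and those of all genes were -0.04 in both. Low ratios were not particular to the 9. In the marker lists described below, the medians were -0.81 and -1.06 for 24 germline genes and -1.39 and -1.49 for 17 oocyte and eggshell genes. The embryo, larval and sperm lists had positive medians to monosome RNA (0.92, 1.00 and 0.95). The comparisons with total and with monosome RNA share the control polysome libraries. The study set aside part of each lysate as total RNA before fractionation, and same-numbered control libraries deviated together, while the labels do not say that a number marks one lysate. With the replicate number as a block 6 of 9 (*mcm-2*, *mcm-4*, *mcm-7*, *pcn-1*, *rnr-1* and *rnr-2*) were called lower against total RNA, where 23.3% of all genes were, and 4 of 9 against monosome RNA, where 30.7% were.

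Among the replication genes, *mcm-7*, *mcm-2* and *mcm-4* had the lowest ratios of polysome to total RNA and of polysome to monosome RNA. *mcm-7* had 741 and 644 CPM in total RNA, 844 and 677 CPM in monosome RNA and 298 and 183 CPM in polysome RNA. The polysome libraries lay below all 4 others, with log2 ratios of -1.53 to total RNA (SE 0.28, edgeR adjusted p 0.0225) and -1.66 to monosome RNA (SE 0.28, adjusted p 0.00529). *mcm-2* had 607 and 502 CPM in total, 985 and 646 CPM in monosome and 302 and 191 CPM in polysome RNA, with log2 ratios of -1.17 (SE 0.31, adjusted p 0.0479) and -1.73 (SE 0.31, adjusted p 0.00650). *mcm-4* had 580.2 and 501 CPM in total, 949.9 and 629 CPM in monosome and 328 and 196 CPM in polysome RNA. Its ratio to monosome RNA was called (-1.59, SE 0.32, adjusted p 0.00884) and that to total RNA was not (-1.04, SE 0.32, adjusted p 0.0665). In *mcm-3* the levels were 276 and 232 CPM in total, 369 and 354 CPM in monosome and 214 and 139.5 CPM in polysome RNA, with log2 ratios of -0.52 (adjusted p 0.215) and -1.03 (SE 0.26, adjusted p 0.0195).

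*mcm-5* and *mcm-6*, the least abundant helicase genes, departed least from total RNA. *mcm-5* had 207 and 160.0 CPM in total, 173 and 182 CPM in monosome and 171 and 115 CPM in polysome RNA, with log2 ratios of -0.36 (interval -0.98 to 0.25) and -0.31 (interval -0.93 to 0.31). *mcm-6* had 190.3 and 160.1 CPM in total, 172 and 256 CPM in monosome and 186 and 131 CPM in polysome RNA, with -0.15 (interval -0.81 to 0.52) and -0.43 (interval -1.10 to 0.23). Polysome and total RNA overlapped in both genes. *pcn-1* had 996 and 839 CPM in total, 1000.5 and 585 CPM in monosome and 710.0 and 406 CPM in polysome RNA, with log2 ratios of -0.72 (adjusted p 0.205) and -0.51 (adjusted p 0.282). *rnr-1* had 484 and 425 CPM in total, 352 and 319 CPM in monosome and 327 and 220.1 CPM in polysome RNA (-0.73 and -0.29 on the log2 scale, edgeR adjusted p 0.0921 and 0.381). *rnr-2* had 715 and 551 CPM in total, 499 and 563 CPM in monosome and 410.0 and 317 CPM in polysome RNA (-0.80 and -0.55, adjusted p 0.0638 and 0.107). The difference in ratio between the helicase genes and the reductase genes was not tested.

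The calls against total RNA rested on single libraries too. Without control total replicate 1, control total replicate 2 or control polysome replicate 2, neither *mcm-7* nor *mcm-2* was called against total RNA. The log2 ratio of *mcm-7* was then -1.17, -1.62 and -1.22 (edgeR adjusted p 0.198, 0.0689 and 0.105) and that of *mcm-2* -0.77, -1.30 and -0.87 (adjusted p 0.386, 0.112 and 0.203), while 0.109%, 1.26% and 0.131% of all genes were called. Without control polysome replicate 1 the calls were *mcm-2*, *mcm-7* and also *mcm-4* (-1.46, adjusted p 0.0469). Against monosome RNA *mcm-2*, *mcm-4* and *mcm-7* were called with each of the 6 control libraries left out, and *mcm-3* was lost without control total replicate 1 (-0.89, adjusted p 0.0624), monosome replicate 1 (-1.02, adjusted p 0.0688), monosome replicate 2 (-1.08, adjusted p 0.0505) or polysome replicate 2 (-0.76, adjusted p 0.0891).

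**Figure D4:**
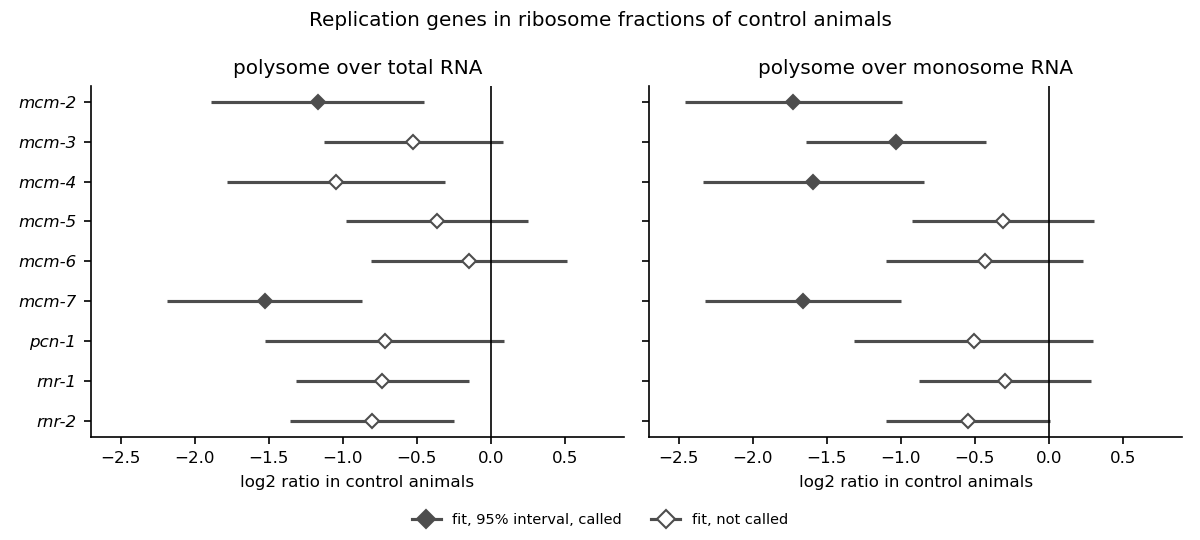
Log2 ratio of polysome to total RNA and of polysome to monosome RNA for each replication gene in control animals, with 95% intervals from the edgeR fit over the 6 control libraries. Filled diamonds are called genes. All 9 points lie below 0 in both panels, and *mcm-2*, *mcm-4* and *mcm-7* lie lowest against monosome RNA.

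Other genes of DNA replication were read from lists made by gene symbol. Of the 23 genes tested for origin licensing and helicase activation, 2 rose and 0 fell in total RNA, and 1 rose and 3 fell in polysome RNA (edgeR calls as above). Of all genes 12.0% rose and 16.9% fell in total RNA, and 15.5% rose and 22.4% fell in polysome RNA, and against these shares few of the licensing genes were called. The median log2 fold changes were 0.10 and 0.03. *ctf-4*, known in yeast as the adaptor that ties the helicase to a polymerase, rose in total RNA (31.3 and 25.19 against 39.8 and 50.6 CPM, log2 fold change 0.68, adjusted p 0.0268). The 3 that fell in polysome RNA were *gmn-1*, encoding geminin, an inhibitor of licensing (146 and 108 against 64.1 and 74.5 CPM, -0.87, adjusted p 0.0167), and *psf-1* and *psf-2*, subunits of the GINS complex that activates the helicase (-0.64 and -0.80, adjusted p 0.0452 and 0.0213). *tim-1*, a homologue of Timeless, rose there (0.85, adjusted p 0.0230). *gmn-1* had -0.45 in total RNA (adjusted p 0.122).

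Of 19 genes tested for polymerases, the clamp loader, single-strand binding and Okazaki fragment processing, 5 rose and 0 fell in total RNA, and 2 rose and 2 fell in polysome RNA, beside the same shares of all genes. The medians were 0.24 and 0.17. In total RNA *top-1*, encoding topoisomerase I, rose by 0.92 on the log2 scale (78.1 and 60.2 against 123 and 139 CPM, edgeR adjusted p 0.00421). *rfc-1*, the large subunit of the clamp loader that places PCN-1 on DNA, rose by 0.84 (77.9 and 58.5 against 122 and 122 CPM, adjusted p 0.00647), and *ctf-18*, of an alternative clamp loader, by 0.79 (adjusted p 0.0205). In polysome RNA *pole-1*, the catalytic subunit of DNA polymerase epsilon, rose by 0.97 (96.1 and 62.1 against 164 and 147 CPM, adjusted p 0.0155), and *rfc-4*, a small clamp loader subunit, fell by 0.90 (118 and 107 against 57.6 and 63.1 CPM, adjusted p 0.00841). Of the 3 other genes of nucleotide supply, *tyms-1*, encoding thymidylate synthase, rose in polysome RNA (46.2 and 39.2 against 74.5 and 76.8 CPM, 0.82, adjusted p 0.0134), and it had 0.49 in total RNA (adjusted p 0.0719). *dut-1*, encoding the dUTPase, stood at 642 and 516 against 692 and 573 CPM in total RNA and was not called. Neither was *dhfr-1*, encoding dihydrofolate reductase, with 91.6 and 75.5 against 84.4 and 69.5 CPM.

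In control animals 6 of the 23 licensing genes, 2 of the 19 polymerase and clamp loader genes and 0 of the 3 nucleotide supply genes were lower in polysome than in total RNA, and 12, 9 and 2 were lower than in monosome RNA, with 0 higher in any of these. Of all genes 10.6% and 21.8% were called lower in these comparisons. Of 27 cell cycle genes, 4 fell and 0 rose in total RNA, and 3 fell and 2 rose in polysome RNA under *xpo-1* RNAi, near or below the shares of all genes that fell (16.9% and 22.4%) or rose (12.0% and 15.5%). *cki-1*, an inhibitor of cyclin-dependent kinases, fell in both (-0.79 in total RNA, adjusted p 0.0307, and -1.66 in polysome RNA, adjusted p 0.000804, by edgeR). *cdc-25.2*, a phosphatase that activates these kinases, fell by 0.90 and 0.74 (adjusted p 0.00278 and 0.0259). *cyd-1*, encoding cyclin D, fell by 0.88 in total RNA (adjusted p 0.00886). *efl-1*, encoding an E2F transcription factor, and *mat-2*, a subunit of the anaphase-promoting complex, rose in polysome RNA (0.76 and 0.97, adjusted p 0.0201 and 0.00791).

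Because the cultures were whole animals, lists of markers for reproductive tissues and offspring were read beside the replication genes. Summed over the list, the 9 replication genes stood at 4655 and 3890.0 CPM in control total RNA and at 4561 and 4238 CPM under *xpo-1* RNAi, so the treatments overlapped. The 24 germline genes summed to 4403 to 4829 CPM in control and 3608 to 3782 CPM under RNAi, with 3 called lower and 1 called higher. In polysome RNA 1 germline gene was called lower and 4 higher, so that these counts were near or below the shares of all genes. *gld-1*, encoding a germline RNA-binding protein, was lower in total RNA (-0.60, edgeR adjusted p 0.0310) and not called in polysome RNA (0.01, adjusted p 0.989). *pgl-1*, encoding a P granule protein, had 696 and 573 CPM in control total RNA and 595 and 523 CPM under RNAi, and was called in neither (-0.18 and 0.07, adjusted p 0.494 and 0.820). The 1 germline gene called higher in total RNA was *glp-1*, which encodes the Notch receptor that keeps germ cells dividing (0.91, adjusted p 0.00670, and 1.41 in polysome RNA, adjusted p 0.00231). *fbf-2*, of the same list, went the other way and was called lower in both (-1.12, edgeR adjusted p 0.00320, and -0.77, adjusted p 0.0280). *sygl-1* and *lst-1* were not called in total RNA (0.02 and -0.29, edgeR adjusted p 0.944 and 0.248). These genes were named after their values were seen. Of 17 oocyte and eggshell genes 1 rose and 0 fell in total RNA, and 3 rose and 0 fell in polysome RNA. Of all genes 12.0% rose and 16.9% fell in total RNA, and 15.5% rose and 22.4% fell in polysome RNA. The counts of oocyte genes that rose were thus below or near these shares. In polysome RNA the sum of the 17 genes was 8553 to 14043 CPM in control and 19497 to 22412 CPM under RNAi. *perm-4*, encoding a protein of the eggshell, rose by 0.93 in total RNA (edgeR adjusted p 0.0101) and 1.52 in polysome RNA (adjusted p 0.00167). *cbd-1*, encoding a chitin-binding eggshell protein, was not called in total RNA (-0.15, adjusted p 0.620) and rose by 0.75 in polysome RNA (adjusted p 0.0390).

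In the lists chosen as markers of progeny, most of the genes called under *xpo-1* RNAi were lower. Of 20 genes of larval molting and cuticle, 19 fell in total RNA and 18 in polysome RNA. Their sum was 926 to 2154 CPM in control and 123 to 126 CPM under *xpo-1* RNAi in total RNA, and 1125 to 1609.9 against 171 CPM in polysome RNA, and none of the 20 was at 0 in a whole group. Of 15 zygotic embryo genes tested, 7 fell in total RNA, among them *pha-4*, the pharynx regulator (8.62 and 12.7 against 2.56 and 3.68 CPM, -1.77, edgeR adjusted p 0.00240), and 10 fell and 1 rose in polysome RNA. The sum over all 20 embryo genes, tested or not, was 133 CPM in both control total libraries and 99.3 to 99.5 CPM under RNAi. Most of this sum was *lin-26*, a regulator of epidermal fate, which was not called (78.8 and 72.5 against 72.2 and 71.8 CPM, -0.07, adjusted p 0.768). The shares of all genes that fell were 16.9% in total and 22.4% in polysome RNA. The early markers *med-2* and *tbx-35* were at 0 in control and in *xpo-1* RNAi total RNA, and *med-1* in the latter. Sperm genes fell as well, 9 of 14 tested in total RNA with 1 higher. The sum over all 19 sperm genes, tested or not, was 87.6 to 308 CPM in control and 50.6 to 53.9 CPM under RNAi. In total RNA the replication genes overlapped between treatments as a sum while the summed levels of these 3 lists did not. The germline sum, lower under RNAi, did not overlap either. Nor did the oocyte and eggshell sum, at 15730 to 18623 CPM in control and 19031 to 21135 CPM under RNAi. The part of progeny in the levels of the replication genes was not tested.

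**Figure D5:**
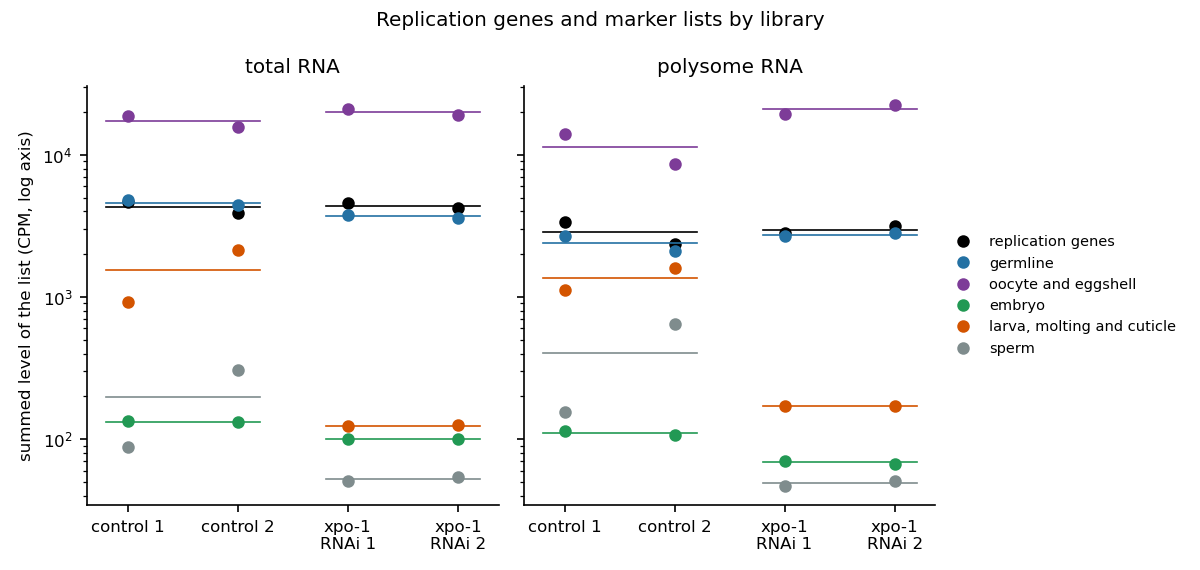
Summed level (CPM, log axis) of the 9 replication genes and of 5 marker lists in each library of total and polysome RNA, with lines at the mean of each treatment. Larval and sperm sums are lower in both *xpo-1* RNAi libraries and differ between the control replicates, while the replication genes overlap between treatments.

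Across the 11 libraries the replication genes followed each other unequally. The Pearson correlation of each gene with the mean of the other 8, on log2 CPM scaled over all libraries, was 0.94 for *mcm-4*, 0.92 for *mcm-2*, 0.91 for *mcm-7* and 0.90 for *mcm-3*. It was 0.80 for *pcn-1*, 0.73 for *mcm-5*, 0.72 for *rnr-2*, 0.62 for *rnr-1* and 0.56 for *mcm-6*. The points share fraction, treatment and scaling, so these values describe the 11 libraries and carry no test. Among 7307 genes with a mean of at least 10 CPM, the 10 with the pattern most like the mean of the 9 were *egg-1* (r = 0.99), C33A11.2, T25D3.4, *egg-4*, C01G8.1, *mtm-9*, *pig-1*, *crn-1*, *puf-3* and *pqn-51*, the last 9 with an r of 0.98 to 0.99. *egg-1* encodes a receptor on the oocyte surface needed for fertilization, *egg-4* a protein of the oocyte-to-embryo transition, *puf-3* an RNA-binding protein of the germ line, and *crn-1* the flap nuclease that trims Okazaki fragments. *crn-1* is also among the 19 replication genes of the polymerase list above.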

How the data were processed

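The authors deposited raw counts per gene for 11 polyadenylated RNA libraries, as whole numbers for 46756 genes with exon coordinates and exonic length. Submitters' processing notes name Trimmomatic, STAR and featureCounts of Subread with the WBcel235 build. Versions and strand settings are not given in the sources used here. The authors' normalized tables were not used, and 0 columns of samples were left out. Symbols matched 43798 identifiers.

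Groups came from sample titles. Total, polysome and interaction contrasts, and control fractions, were tested by quasi-likelihood in edgeR 4.0.16 (under R 4.3.3, TMM, no covariate). Genes entered a fit with 10 or more counts in 2 or more of its libraries, and p-values were adjusted over all of them after Benjamini and Hochberg. A call required a fold change above 1.5 besides an adjusted p below 0.05. DESeq2 1.42.0, other scalings and filters, a replicate block and left-out libraries were alternatives. Standard errors were the log2 fold change over the square root of F. CPM were scaled by TMM within one kind of RNA, over the 6 control libraries for control fractions, and over all 11 libraries for correlations, which used log2 of CPM plus 0.5. Translation efficiency was log2 of polysome over monosome mean counts, median-of-ratios scaled, with a pseudocount of 1. Intervals of shares cover counting error only, because reads lacked molecular identifiers. Recovery of known log2 fold changes was checked on simulated counts that took their spread from the fits, and no limit on false calls was set.

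All 9 replication genes are named. Of the other replication and cell cycle lists, up to 5 called genes per list with the largest absolute log2 fold change and a mean of at least 1 CPM were eligible, and of marker lists the 2 genes with the highest mean. Genes at 0 and the germline genes *glp-1*, *fbf-2*, *sygl-1* and *lst-1* were named after their values were seen. Members and lists were chosen with earlier results of these data known. Replicates of a group differed far beyond sampling noise, so none was counted as a repeat.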

Additional observations from a re-analysis of the deposited data

How the results depend on the processing

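Outside the comparison of control polysome with monosome RNA, the calls among the 9 replication genes depended on scaling or on single control libraries. In that comparison *mcm-2*, *mcm-4* and *mcm-7* were called lower in every alternative, and *mcm-3* was lost without some single libraries. With scaling by total counts alone 2 were called in total RNA and 6 in polysome RNA, all higher, and the calls over all genes turned from 1649 higher and 2337 lower to 3305 and 1647 in total RNA and from 2161 and 3127 to 4503 and 2209 in polysome RNA. Under that scaling *mcm-2* (0.25), *mcm-7* (0.0035), *pcn-1* (0.24) and *rnr-1* (0.20) turned positive in total RNA, as did *rnr-2* in polysome RNA (0.083) and the *mcm-6* ratio of control polysome to total RNA (0.079). In that control comparison total-count scaling and median-of-ratios scaling each left 1 call, *mcm-7*, with 1051 genes called under the latter. A filter of 10 counts in every library gave 1 call in polysome RNA (*pcn-1*, -0.64) and 4 in control polysome against total RNA. Of all genes tested with that filter, 38.8% and 20.5% were called in these comparisons, in either direction.

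Leaving out 1 library gave 0 to 1 calls among the 9 in total RNA, 0 to 2 in polysome RNA, 0 to 1 in the interaction, 0 to 3 in control polysome against total RNA and 3 to 4 against monosome RNA. Over all genes the counts were 1356 to 4726, 2162 to 5925, 0 to 722, 16 to 2000.0 and 2482 to 4836. Uncalled log2 fold changes near 0 changed sign. Over the left-out libraries they ran, in total RNA, from -0.20 to 0.078 for *mcm-2*, -0.081 to 0.15 for *mcm-4*, -0.012 to 0.36 for *mcm-5* and -0.22 to 0.11 for *pcn-1*. In polysome RNA they ran from -0.060 to 0.47 for *mcm-2*, -0.043 to 0.56 for *mcm-4* and -0.20 to 0.24 for *mcm-5*. In the interaction they ran from -0.22 to 0.33 for *mcm-3*, -0.033 to 0.64 for *mcm-4*, -0.33 to 0.22 for *mcm-5* and -0.30 to 0.22 for *mcm-6*, and in control polysome against total RNA from -0.67 to 0.096 for *mcm-5* and -0.41 to 0.24 for *mcm-6*. With 10 counts required in every library the interaction was 0.040 for *mcm-5* and 0.045 for *mcm-6*. The cause of these changes was not tested. Over all genes the interaction called 690 genes with DESeq2, 576 with no count filter and 423 with the filter in every library.

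The labels do not tie a replicate number to a culture or lysate, so the block stayed an alternative. With the number as a replicate block 0 replication genes were called in total RNA, in polysome RNA and in the interaction (1961 genes of all), 6 in control polysome against total RNA (5840 of all) and 4 against monosome RNA (8625 of all). Deviations of same-numbered samples correlated at 0.78 between control total and polysome RNA and at -0.45 between *xpo-1* RNAi total and polysome RNA. A block with the *xpo-1* RNAi polysome numbers crossed, chosen after seeing the data, called 1 replication gene and 2986 genes of all. The call rule leaves changes under 1.5-fold uncalled whatever their p, and values from the single *xpo-1* RNAi monosome library have no replicate check. With scaling by total counts alone, an alternative chosen after seeing the data, 3 and not 9 replication genes lay above both controls in that library.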
